A study of Mus musculus with 8 samples.

Results

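The clusters described here are CAGE-seq starts in the coding sequence of long exons. They lay over 500 bp from every annotated transcript start on the same strand, inside coding sequence that belongs to an exon of at least 1000 bp in GENCODE M21 (mm10), and each was placed by its dominant TSS, the base of the cluster where most tags began. In wild-type E14 mouse embryonic stem cells 753 of 32857 clusters met this rule (2.29%, 95% Wilson interval 2.14 to 2.46). In the *Pwwp2a/b* double knockout (DKO) clones, 774 of 33005 clusters of A1 and 768 of 32870 clusters of C7 did. They made up 27.0% of all coding-sequence clusters over 500 bp from a start in E14, and the other 2031 lay in shorter exons.

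CAGE-seq reads the capped 5′ ends of RNA, here of the nuclear fraction, in 3 lines: E14, which is wild-type, and clones A1 and C7, which both lack *Pwwp2a* and *Pwwp2b*. E14 and C7 had 3 libraries each and A1 had 2, and the libraries of a line were merged before the clusters used here were made. Each DKO line is 1 clone, so the effect of the deletion and the history of a clone cannot be told apart within a line. The cluster table gives positions and no tag numbers. Signal tracks and read totals were not used here. Depth per line is therefore unknown from the table, a line has 1 value for each measure, no spread between replicates can be given and no test was run. Intervals printed below cover counting error only, and clusters of 1 exon share their transcript, so that they are not independent. All 10 embryonic stem cell markers examined, among them *Pou5f1*, *Sox2* and *Nanog*, had a cluster at an annotated start in each line. Of 10 markers of endoderm, mesoderm, ectoderm and trophectoderm, *Sox17* and *Sox1* had a cluster there in every line, and the other 8 had none. *Pwwp2a* had 1 cluster at its starts in each line and *Pwwp2b* none, and neither gene had a long-exon coding cluster. A position table without tag numbers does not test the deletion.

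PWWP2A and PWWP2B bind nucleosomes carrying H3K36me3, the mark that trails elongating RNA polymerase II across gene bodies, and they bring a histone deacetylase complex with them. Loss of factors that read or write this mark is known in yeast and mammals to let transcription begin inside genes. Most coding exons of mammals are short, and the long ones are a particular set: they include last exons, single exons of intronless genes, first exons and internal exons.

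The sequence around the dominant TSS is shown for the widest cluster of each of the 6 genes with the most long-exon coding clusters in E14, because these exons hold much of the set. Each line gives 15 bases before the dominant TSS and 15 from it on, 5′ to 3′ on the coding strand, taken from GENCODE M21 transcripts. Capitals mark the 2 bases just before the dominant TSS (positions −2 and −1), and the next base is the dominant TSS itself (+1).
Mki67, chr7:135700555-135700584, minus strand: cagactatgctgaGGaactacttagtcaag
Akap12, chr10:4353433-4353462, plus strand: atgaaggcgaaggGGcagaagcctccgtcg
Ankrd11, chr8:122893757-122893786, minus strand: aagacttctcagaGAgaaaggatgacagga
Tet1, chr10:62839342-62839371, minus strand: aggcgctgctggtGGgagagctccctttga
Srrm2, chr17:23816394-23816423, plus strand: gcaaaatctttgaGGcgaagcctttcaggt
Polr2a, chr11:69734879-69734908, minus strand: cccctccagcccaCGatatacaccacagtc

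The clusters were concentrated in few genes. In E14 they lay in 284 exons of 263 genes. Of these genes 141 had 1 cluster and 31 had 5 or more, and the 5 leading genes held 22.3% of all clusters while the 15 leading genes held 37.2%. *Mki67*, which encodes the proliferation marker Ki-67 that coats mitotic chromosomes, had 45 clusters in E14 and 46 in each clone. All of them lay in exon 12 of 14, an internal exon of 6836 bp. *Akap12*, a scaffold that anchors protein kinase A, had 39 clusters in every line, all in exon 3 of 4 (4798 bp). *Ankrd11*, which encodes a chromatin regulator, had 36, 38 and 37 in E14, A1 and C7, all those of E14 in exon 9 of 13 (6518 bp).

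*Tet1*, the 5-methylcytosine dioxygenase, had 29, 31 and 30 clusters in E14, A1 and C7, spread over more than 1 exon. In E14, 14 of these lay in exon 3 (2203 bp), 9 in exon 2 (1982 bp) and 6 in the last exon, which is 8843 bp long (exon numbers are those of the transcript whose exon was used). Its relative *Tet2* had 11 in each line, of which 7 lay in exon 3 and 4 in the last exon. *Srrm2*, the scaffold of nuclear speckles, had 19, 19 and 21 clusters in E14, A1 and C7, all those of E14 in exon 10 of 14 (6569 bp). Thus 4 of the 5 leading genes carried their E14 clusters in a single giant internal exon, and *Tet1* in a group of 3 exons.

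The remaining leading genes had smaller numbers that hardly differed between lines. *Polr2a*, which encodes the largest subunit of RNA polymerase II, and the zinc finger gene *Zfp990* had 13 clusters in each line. *Rrbp1*, a ribosome-binding protein of the endoplasmic reticulum, had 13 in E14 and 12 in each clone. *Ppig*, a nuclear peptidyl-prolyl isomerase, and *Resf1*, a silencer of retroelements, had 12 in each line. *L1td1*, an RNA-binding protein of pluripotent cells, and *Rbbp6*, a ubiquitin ligase, had 10. *Bod1l*, which protects replication forks, had 9, 10 and 9 in E14, A1 and C7, and the cohesin loader *Nipbl* had 9 in each line. The mitochondrial genome contributed 12 clusters in every line, 9 in *mt-Nd5*, a subunit of respiratory complex I, and 3 in *mt-Co1*, the catalytic subunit of complex IV.

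**Figure D1:**
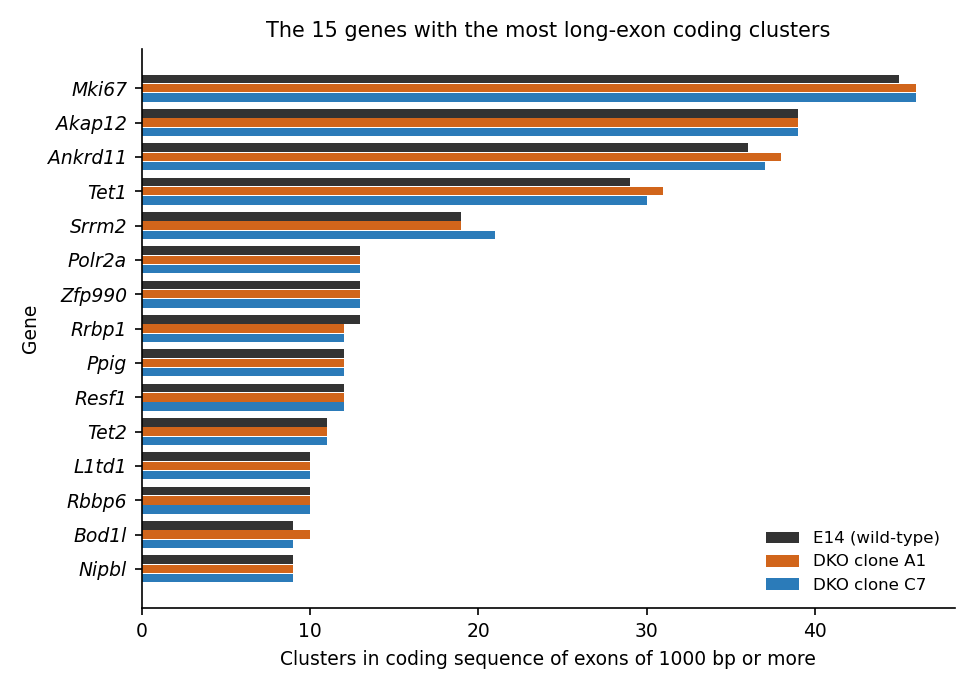
Number of clusters in coding sequence of exons of at least 1000 bp (x axis) for the 15 genes with the most in E14 (y axis), with 1 bar per line and no replicate error, since libraries were merged. The bars of a gene differ by at most 2 clusters between lines, and *Mki67* leads with 45, 46 and 46.

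Set against exon length, some smaller exons were as crowded as the giant ones. Among the 32 exons with at least 5 clusters in E14, the last exon of *Polr2a* had the most per kb of exon, 8.28, with 13 clusters in 1570 bp. It encodes the repetitive C-terminal domain of the polymerase. *Akap12* exon 3 followed with 8.13 per kb, *Mki67* exon 12 with 6.58, *Tet1* exon 3 with 6.35 and *Rrbp1* exon 2 of 24 with 6.13. The next 5 exons were those of *L1td1* (5.98 per kb), *Nipbl* (5.60), *Ankrd11* (5.52), the splicing kinase gene *Prpf4b* (5.01) and *Zfp990* (5.00). These values divide by the whole exon, its untranslated part included. The 31 genes with at least 5 clusters in E14 were also ranked per kb of eligible long-exon coding sequence. There *Polr2a* had 11.3 clusters, *Ppig* 10.8, the splicing factor gene *Prpf38b* 9.51 and *Akap12* 8.15. Some genes with fewer clusters had higher values. Of the 284 exons with a cluster in E14, 159 had only 1.

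Within an exon, clusters often followed each other closely. Over the 469 pairs of neighbouring clusters in E14 the median distance between dominant TSSs was 93 bp (quartiles 54 and 212), the smallest was 21 bp, and 53.3% of pairs were at most 100 bp apart. A1 and C7 had medians of 93 and 94 bp. In *Mki67* exon 12 the median distance was 77.5 bp and the largest 699 bp, so that runs of starts alternated with gaps. Over 5 equal parts of its coding sequence, from the 5′ end, that exon had 16, 4, 7, 7 and 11 clusters in E14, and *Ankrd11* exon 9 had 9, 14, 10, 2 and 1. *Srrm2* exon 10 had 16, 2, 1, 0 and 0, but annotated starts lie in or near its 3′ side, and only 509 bases of its last part were eligible against 1314 of its first.

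**Figure D2:**
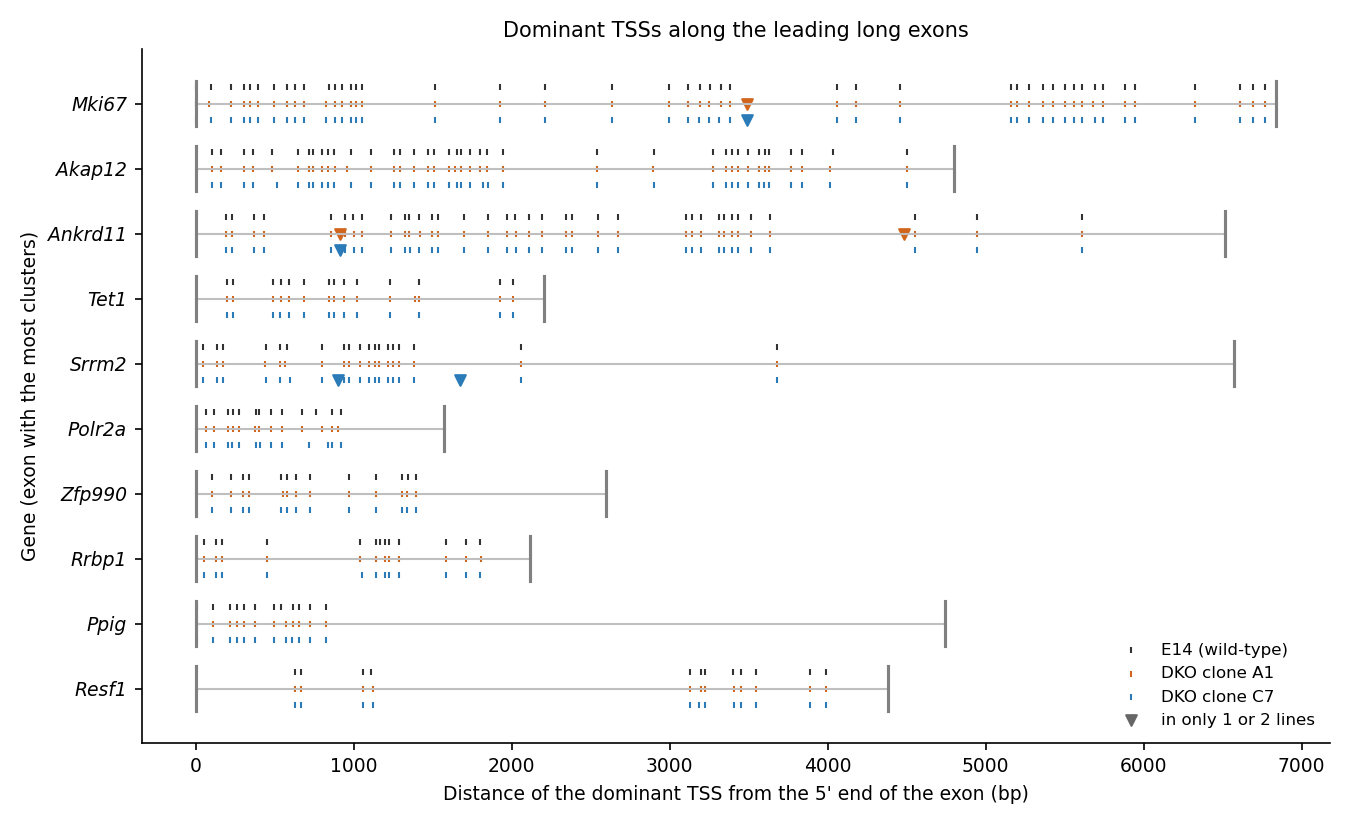
Dominant TSSs (ticks) along the exon with the most clusters in each of 10 leading genes, as distance in bp from the 5′ end of the exon (x axis), with 1 row of ticks per line and grey end bars at the exon's ends. Triangles mark clusters absent from at least 1 line, such as the one shared by A1 and C7 in *Mki67*, and nearly all other ticks stand in the 3 lines at or near the same place.

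With the coding part of each exon divided in 5 equal parts from its 5′ end, the parts held 24.97%, 24.3%, 18.3%, 17.5% and 14.9% of the E14 clusters, against 20.1%, 20.7%, 20.2%, 19.9% and 19.0% of the eligible bases of the same exons. A1 had 25.5% in the first part and 15.1% in the last, and C7 had 25.3% and 14.7%. Without the 5 leading genes the first part held 22.9% in E14 (Wilson interval 19.7 to 26.5), an interval that includes the 20.1% of eligible bases. By reading frame, 26.8% of dominant TSSs in E14 fell on codon position 1, 41.8% on position 2 and 31.3% on position 3, against 33.3% of eligible bases at each. The Wilson interval for position 2 was 38.4 to 45.4%.

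Whether starts follow exon length was asked by dividing clusters by the eligible coding sequence, that is, coding bases over 500 bp from every start. In E14 exons of at least 1000 bp had 0.0909 clusters per kb (exact Poisson 95% interval 0.0845 to 0.0976) over 8285 kb, and shorter exons had 0.0980 (0.0938 to 0.102) over 20724 kb. The corresponding values were 0.0934 and 0.0990 in A1 and 0.0927 and 0.0994 in C7. These intervals overlap in each line. By length class, exons of 1000 to 1999 bp had 0.0801 per kb in E14, those of 2000 to 3999 bp 0.0638, and those of at least 4000 bp 0.157 (0.139 to 0.176). The 4 classes under 1000 bp lay between 0.0942 and 0.105. The longest class thus stood above every other class, and the class of 2000 to 3999 bp was the lowest, with an interval (0.0556 to 0.0730) that overlapped that of 1000 to 1999 bp (0.0703 to 0.0908).

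Of the 295 clusters in exons of at least 4000 bp in E14, 150 lay outside *Mki67*, *Akap12*, *Ankrd11*, *Tet1* and *Srrm2*. Without these 5 genes that class had 0.0808 clusters per kb (0.0684 to 0.0948), and 0.158 (0.133 to 0.185) over genes with a cluster at a start. The 5 genes were picked for their number of long-exon clusters, which lowers any long-exon value without them by construction, and no order of the classes is read from those values. Long exons had more clusters per kb than short exons on 9 of 20 chromosomes (the autosomes and X).

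Genes with a cluster at an annotated start of their own held nearly all of the set. In E14, 246 of the 6883 such genes with eligible long-exon coding sequence had a long-exon cluster (3.57%), against 17 of 6146 genes without a cluster at a start (0.277%). Over the genes with a cluster at a start, long exons had 0.181 clusters per kb (0.168 to 0.195) and shorter exons 0.162 (0.155 to 0.170) in E14. These intervals overlap, as did those over all genes. For the genes with a cluster at a start, long exons had the higher value on 10 of 20 chromosomes in E14. Without the 5 leading genes the values were 0.140 (0.129 to 0.152) and 0.161 (0.154 to 0.168), of which the first is lowered by the choice of these genes, and no order is read from them. With the 5 genes included, A1 had 0.187 and 0.164 and C7 0.185 and 0.165. The cluster table holds no tag numbers, so that the part of expression level in these values was not tested.

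**Figure D3:**
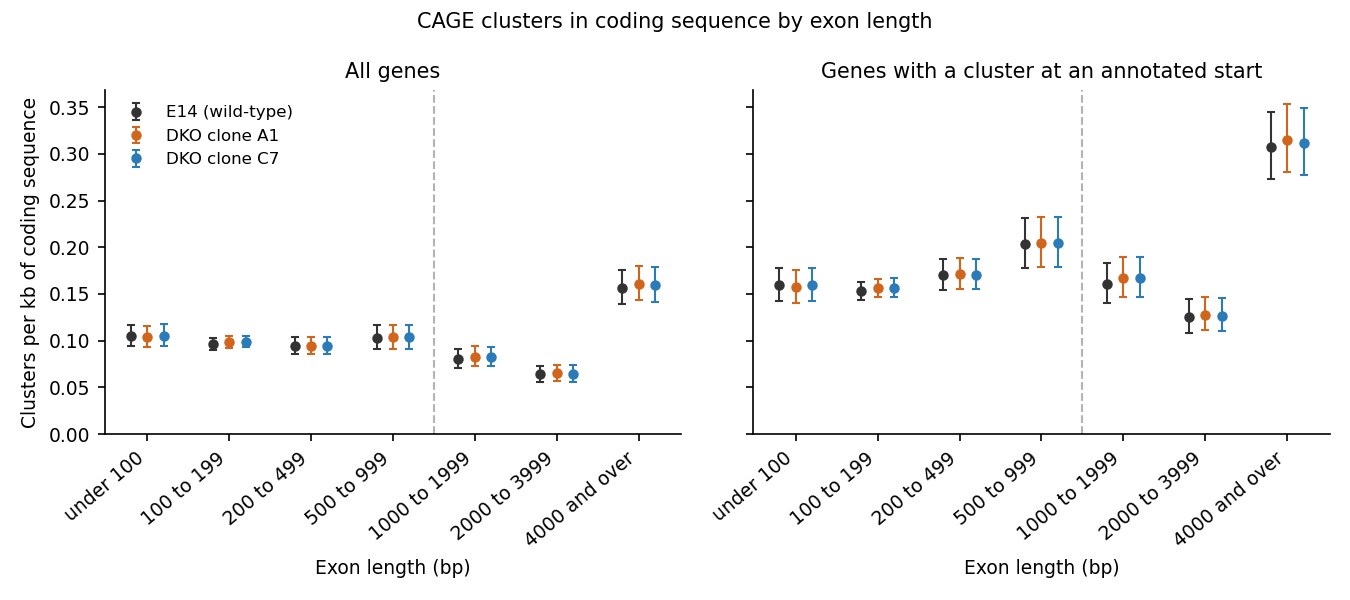
Clusters per kb of eligible coding sequence (y axis) by exon length class in bp (x axis) for E14, A1 and C7, over all genes (left) and over genes with a cluster at an annotated start (right). Error bars are exact Poisson 95% intervals, the dashed line marks 1000 bp, and in E14 exons of at least 4000 bp reach 0.157 on the left and 0.307 on the right.

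Clusters per kb also differed by the kind of long exon. Of the 753 clusters in E14, 412 lay in internal exons, 293 in last exons, 31 in single exons of intronless transcripts and 17 in the first exon of a transcript. Internal long exons had 0.228 clusters per kb (0.206 to 0.251), last exons 0.0550 (0.0489 to 0.0617), single exons 0.0427 (0.0290 to 0.0606) and first exons 0.0401 (0.0234 to 0.0642). The ratio of internal to last exons was 4.14, 4.11 and 4.13 in E14, A1 and C7, and 2.60, 2.58 and 2.57 without the 5 leading genes, a choice that itself lowers it. Among genes with a cluster at a start, in E14, internal exons had 0.377 clusters per kb (0.341 to 0.416) and single exons 0.154 (0.101 to 0.226). Last exons there had 0.107 (0.0951 to 0.121) and first exons 0.0867 (0.0474 to 0.146). The ratio of internal to last exons was 3.51 among these genes and 2.20 without the 5 leading ones. The intervals of single and last exons overlap. The 12 mitochondrial clusters of E14 lie in genes of 1 exon and so count among the 31 in single exons. Single-exon values without them were not computed, and no order of single and last exons is read.

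Lists of genes by function were compared with all genes. Over all genes with a cluster at a start, long exons had 0.181 clusters per kb in E14. Of all 13029 genes with eligible coding sequence in a long exon, 263 held a cluster (2.02%), and of the 6883 that also had a cluster at a start 246 did (3.57%), which is the nearer background, since most listed genes had one. Of 53 chromatin regulators with a long exon 23 held a cluster, led by *Ankrd11* (36), *Tet1* (29) and *Tet2* (11), with 128, 135 and 133 clusters in E14, A1 and C7 and 1.20 per kb in genes with a cluster at a start. Of 19 genes of mitosis and the centrosome 7 did, with 63, 64 and 64 clusters and 1.60 per kb. *Mki67* alone gave 45 of these, followed by *Cenpf*, a kinetochore protein, with 8 and the kinesin gene *Kif20b* with 4.

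Of 23 genes of splicing and nuclear speckles 6 held clusters, with 37, 37 and 39 in E14, A1 and C7 and 1.44 per kb, led by *Srrm2* (19), *Pnn* (7) and *Prpf4b* (6). Of 21 genes of cytoskeleton and adhesion 9 did, with 64 clusters in each line and 0.703 per kb, led by *Akap12* (39) and the microtubule-binding genes *Map1b* (8) and *Macf1* (5). Of 20 genome maintenance genes 4 held 1 cluster each in every line, among them *Brca1*, *Msh6* and *Rev3l*, which gives 0.124 per kb (0.0339 to 0.318). Zinc finger genes, with 434 genes that have a long exon, had 62 E14 clusters in 26 genes (65 in A1, 64 in C7), led by *Zfp990* (13), *Zfp106* (5) and *Zfp292* (4), and 0.109 per kb (0.0821 to 0.141). Most lists were carried by 1 to 3 genes, and the lists were made with the leading genes already known.

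At the dominant TSS itself these clusters shared a sequence feature that the selection did not use. Of 741 E14 clusters with sequence on both sides, 506 had guanine at both −2 and −1 (68.3%, Wilson interval 64.8 to 71.5), against 6.14% of all eligible positions in the same exons. Guanine stood at −2 in 84.9% and at −1 in 77.1% of clusters, where 24.8% of eligible positions have it, and adenine at +4 in 60.7%, against 30.1%. The share with both guanines was 66.7% in A1 and 67.6% in C7. The step most common at promoters, a pyrimidine at −1 followed by a purine at +1, occurred in 7.42% of E14 clusters (5.75 to 9.54) and in 21.1% of eligible positions.

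The feature was also present outside long exons. In E14, guanine at −2 and −1 stood in 67.0% of clusters in shorter coding exons (64.8 to 69.1) and in 65.1% of clusters in 3′ UTRs (62.1 to 68.0), and both intervals overlap that of the long exons. Clusters within 500 bp of a transcript start differed. Among the 42.6% of these whose sequence could be read from RefSeq promoter windows (GRCm38.p6), 5.05% had guanine at both positions and 82.2% had the pyrimidine-purine step. The other clusters at starts have no sequence here, so that these shares hold only for those in the windows.

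**Figure D4:**
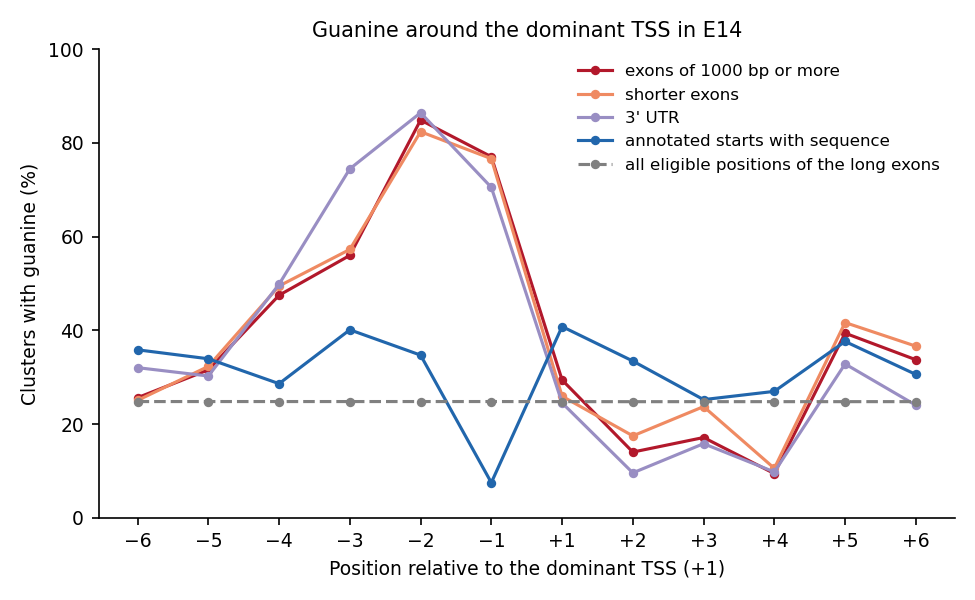
Share of E14 clusters with guanine (y axis, percent) at each position from −6 to +6 around the dominant TSS (x axis), for clusters in long exons, shorter exons, 3′ UTRs and annotated starts with sequence, and for all eligible positions of the long exons (dashed). Coding clusters peak at −2 and −1 (84.9% and 77.1% in long exons, where eligible positions have 24.8%), and 3′ UTR clusters at −2 and −3 (86.4% and 74.5%).

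The guanines were most frequent at the sharpest clusters. In E14 they preceded the dominant TSS in 81.0% of 315 clusters with an interquantile width of 1 or 2 bp, in 60.0% of 175 clusters of 3 to 10 bp, in 57.6% of 125 clusters of 11 to 20 bp and in 58.7% of 126 wider ones. Exons differed as well. In *Akap12* exon 3, 28 of 39 clusters had both guanines, in *Ankrd11* exon 9 26 of 36, in *Mki67* exon 12 25 of 44 and in *Srrm2* exon 10 13 of 19. The last exon of *Polr2a* was an exception with 1 of 13, and that exon holds only 10 eligible positions with guanine at −2 and −1. *Zfp990* had 3 of 13, with 37 such positions in its exon. In contrast, *Rrbp1* exon 2 had 10 of 13, with 338 such positions.

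Few pairs of clusters of an exon lay in repeated sequence. Among 3541 pairs of E14 clusters of the same exon, 17 pairs had windows of 30 bases that were equal at 24 or more positions. Of these, 7 pairs lay in *Zfp990*, whose zinc finger exon is built of repeats, and 2 each in *Mki67*, *Polr2a* and *2610021A01Rik*. Reads had to map to 1 place only, so that copies of such sequence elsewhere in the genome could lower what was seen there, which was not tested. The *Mki67* pairs are shown because that exon also encodes repeats: starts 1077 and 2130 bp apart used nearly the same sequence, with capitals as above.
Mki67, chr7:135697669-135697698, minus strand: cagcaccaatgcaGGaagaaaatggcacca
Mki67, chr7:135696592-135696621, minus strand: cagcaccagtgcaGGaagaaaatgacagca
Mki67, chr7:135699125-135699154, minus strand: ccttcaatacttgGGaaaaaaacaaagtca
Mki67, chr7:135696995-135697024, minus strand: ccttcaatacttgAGaaaaaaacaaagtca
The windows of the pair printed first were equal at 27 of 30 bases, and those of the other pair at 29.

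Clusters in long exons were sharp. The interquantile width, the stretch between the 0.1 and 0.9 quantiles of the tags, had a median of 4 bp in E14 (interval 3 to 5, quartiles 2 and 16), 4 bp in A1 and 3.5 bp in C7. Clusters within 500 bp of a transcript start had medians of 20, 21 and 21 bp. On 20 of 20 chromosomes the long-exon median was below that of the clusters at starts, in each line. At most 3 bp was reached by 49.9% of long-exon clusters and 14.1% of clusters at starts in E14, and 16.7% against 49.9% were wider than 20 bp. Shorter coding exons, with a median of 5 bp (4 to 6), could not be told from long ones by this interval. The widest cluster of *Tet1* in E14, printed above, spanned 136 bp, and those of *Akap12* and *Mki67* 105 and 97 bp.

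**Figure D5:**
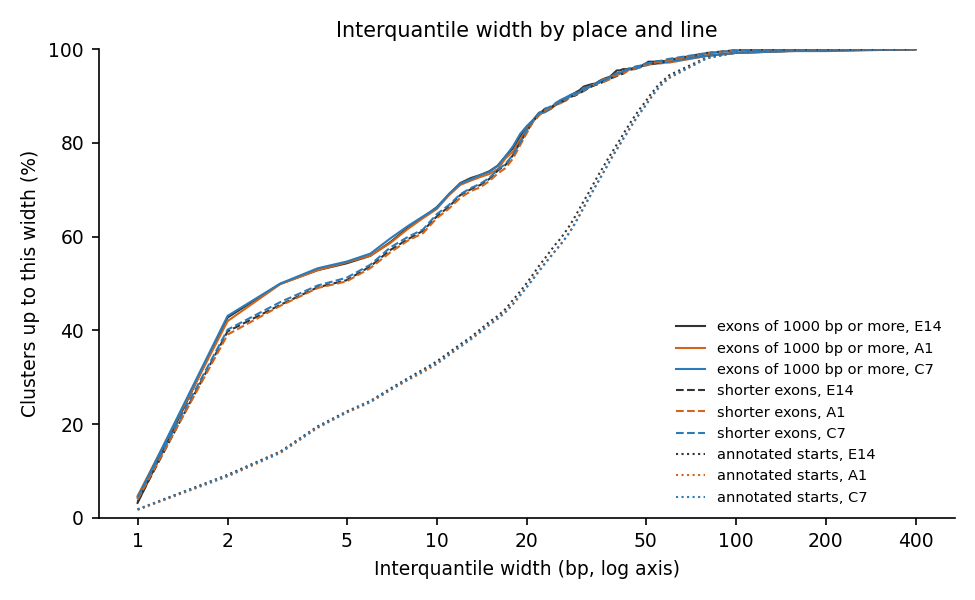
Share of clusters (y axis, percent) with an interquantile width up to the value on the log x axis (bp), for long exons (solid), shorter exons (dashed) and annotated starts (dotted) in each line. The curves of coding clusters lie above those of annotated starts up to about 100 bp, and the 3 lines overlie each other within each place.

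Turning to the differences between lines, same-strand clusters with at least 1 bp in common were joined over the 3 lines, which gave 781 long-exon clusters among 33324 in all. Of the 781, 750 were present in all 3 lines (96.0%), against a background of 97.4% over all clusters. Of these 750, 746 had the same first and last base in every line (99.5%), against 98.5% over all clusters present in the 3 lines. With bounds this alike, presence in 1 line cannot be taken as a call made independently of the others, and the study's methods describe joining nearby clusters over replicates without saying whether lines were joined too.

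In both clones and not in E14 there were 13 clusters (1.66%, Wilson interval 0.975 to 2.83), and over all clusters the share was 0.444%. In E14 alone there was 1 (0.128%), and over all clusters 0.228%. A1 alone had 9 (1.15%, 0.607 to 2.18, background 0.651%) and C7 alone 5 (0.640%, 0.274 to 1.49, background 0.321%). E14 with A1 had 2 (0.256%, background 0.510%) and E14 with C7 1 (0.128%, background 0.471%). In shorter coding exons 15 clusters of 2107 were in both clones and not in E14 (0.712%, 0.432 to 1.17) and 3 were in E14 alone, while 14 were shared by E14 and A1 only and 16 by E14 and C7 only. The interval for both clones overlaps that of the long exons.

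These 13 clusters were of the smallest kind the table holds. All but that of *Pelp1*, which was 2 bp wide, were 1 bp wide, and so was the one in E14 alone, whereas 7 of the 750 clusters in all 3 lines were. Over all clusters, 86 of the 148 in both clones and not in E14 were 1 bp wide. Without clusters of 1 bp, the 13 in long exons became 1. Among all long-exon clusters, those of 1 bp were also fewer in E14, with 9 against 29 in A1 and 24 in C7. In shorter coding exons they numbered 19, 47 and 54 in E14, A1 and C7. Whether depth or the merging of 3 and 2 libraries plays a part in these numbers was not tested.

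The 13 clusters lay in 12 genes, and 11 of the 13 were in genes that already had a long-exon cluster in E14. The same held for 6 of the 9 clusters in A1 alone and all 5 in C7 alone. The 13 comprised 1 each in *Mki67*, *Ankrd11* and *Tet1*, and 2 in *Zfp106*, which encodes an RNA-binding zinc finger protein. Single clusters lay in *Ranbp2* (a nucleoporin), *Pelp1* (a coregulator of nuclear receptors), *Chd7* (a chromatin remodeller), *Baz1b* (a subunit of a remodelling complex), *Amer1* (a regulator of Wnt signalling) and *Tmem184c*. *Pcbp2*, a poly(C)-binding protein, and *Gpatch4* had none in E14 and 1 in each clone. Distances to the nearest other long-exon cluster of the gene were 23 bp in *Pelp1*, 32 bp in *Ankrd11*, 75 and 120 bp in *Zfp106*, 99 bp in *Tmem184c*, 105 bp in *Mki67*, 192 bp in *Amer1* and 219 bp in *Baz1b*. They were 432 bp in *Tet1*, 517 bp in *Ranbp2* and 114156 bp in *Chd7*, and *Pcbp2* and *Gpatch4* had no other such cluster.

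Starts found in both clones only are printed for 7 of the 13, to set them beside the sequences above. They come first in the order of chromosome names among those whose 30 bases lay wholly in coding sequence of the exon, which left out *Pcbp2*. Of the 13, 11 had guanine at −2 and −1. So did all 9 in A1 alone, all 5 in C7 alone and 501 of 738 clusters with sequence present in all 3 lines. Among E14 clusters of 1 or 2 bp the share was 81.0%.
Ranbp2, clones only, chr10:58480079-58480108, plus strand: tcgtgatgagaagGGaccaggtattaaaac
Tet1, clones only, chr10:62879358-62879387, minus strand: tggccactggaagGGacacattgtgaagaa
Pelp1, clones only, chr11:70394278-70394307, minus strand: gactttgaggaagAGgaagaagatgaagaa
Zfp106, clones only, chr2:120534494-120534523, minus strand: tcaaaaaataaggAGacaaagtcctttcct
Zfp106, clones only, chr2:120535287-120535316, minus strand: ttggcattctgaaGGaacaggtggctttcc
Gpatch4, clones only, chr3:88055113-88055142, plus strand: agcagaaagagggGGaagaggctgcaacaa
Chd7, clones only, chr4:8866609-8866638, plus strand: ccctcgaaggcggGGatgagatagaaaaca

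By gene, 239 of 270 genes had the same number of long-exon clusters in the 3 lines, 12 had more in both clones than in E14 (4.44%, Wilson interval 2.56 to 7.61) and 2 had fewer (0.741%, 0.203 to 2.66). Counting all coding clusters and those at starts together, over 12651 genes, 96.3% had the same number, 0.617% more in both clones and 0.379% fewer. Among 854 genes with clusters in shorter coding exons 22 had more (2.58%, 1.71 to 3.87) and 6 fewer (0.703%), and these intervals overlap those of the long exons. The 12 were the genes just named, and *Zfp106* moved from 5 to 7 clusters in each clone. Among the genes with fewer was *Rrbp1*. The *Rrbp1* difference arose because a pair of clusters of E14 formed 1 cluster in A1 and in C7, and a cluster of *Tet1* was in the same way split in A1 only.

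At clusters present in every line the dominant TSS mostly stayed in place. Of 747 clusters with 1 counterpart in each line, 492 had the same dominant TSS in all 3 (65.9%, 62.4 to 69.2), against 66.3% over all clusters. E14 and A1 shared it at 77.1% (background 76.3%), E14 and C7 at 78.7% (78.9%) and the clones at 73.6% (74.8%). Both clones had moved to the same new base at 58 (7.76%, 6.05 to 9.91), where the background over all clusters was 8.47%. The median of these moves was 1 bp and the largest 32 bp, with 36 downstream (4.82%, background 4.51%) and 22 upstream (2.95%, background 3.96%). In shorter coding exons 91 moved downstream and 95 upstream. The furthest moves were those of *Ppig* (32 bp downstream), *Nsd1*, a histone H3K36 methyltransferase (21 bp upstream), *Zfp106* (19 bp downstream), and *Eif1a*, *Marcks*, *Slc2a1* and *Zfp652* (18 bp upstream each). *Akap12* followed with 16 bp upstream, *Hist1h1d* with 16 bp downstream and *Clec11a* with 15 bp downstream.

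Few clusters changed their width in the same direction in both clones. The interquantile region was wider in both clones than in E14 at 52 of 747 clusters (6.96%, 5.35 to 9.01; background 12.5%) and narrower in both at 14 (1.87%, 1.12 to 3.12; background 3.99%). At 562 clusters the width was equal in the 3 lines (75.2%, background 59.4%). Shorter coding exons were close to long ones, with 76.4% equal, 5.46% wider in both clones and 2.58% narrower. The background is mostly of clusters at starts, which were wider in each line. Whether that width plays a part in these shares was not tested. The *Hspa5* cluster, in the gene of an endoplasmic reticulum chaperone, widened most by the smaller of its changes, from 42 bp in E14 to 75 in A1 and 64 bp for C7. The 136 bp cluster of *Tet1* narrowed most, to 121 bp in A1 and 122 in C7.

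At the edges of the selection, the counts in E14 were as follows. Exons of 1000 to 1099 bp held 18 clusters in 14 genes and those of 900 to 999 bp held 52 in 21 genes. Clusters 501 to 600 bp from a start numbered 19 and those at 401 to 500 bp in the same kind of exon 31. The median distance to the nearest transcript start was 5320 bp (quartiles 2188 and 10431).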

How the data were processed

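nAnT-iCAGE libraries were made from nuclear RNA of E14 (3 libraries), A1 (2) and C7 (3). Per the study's methods, the authors kept uniquely mapped reads (STAR 2.4.2a, mm10), merged replicates by line and called clusters with CAGEr. SAMtools 1.3 and bedtools 2.17.0 are named in the submitters' processing notes. The deposited table holds cluster bounds, the dominant TSS and the 0.1 and 0.9 quantile region for each line. Its score column is 0 in every row as deposited, so this table gives no level, depth or test; signal tracks and read totals were not used here. The other deposited values are positions and block sizes in bp.

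Clusters were placed by dominant TSS on GENCODE M21, and where exons overlapped the longest was used. Shares have Wilson and densities exact Poisson intervals (95%); medians have intervals from order statistics. Positions in reference sequence came from GENCODE M21 transcripts and RefSeq promoter windows. Python 3.11.15, NumPy 2.4.6 and SciPy 1.17.1 were used. Class and presence were recovered for all 1398 simulated clusters of known class and lines. The simulated clusters were set well apart and kept the same dominant TSS in every line. Closely spaced, split or moved clusters were therefore not covered by that check.

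Members and gene lists were chosen with earlier results of these data known. Named genes were the 15 with the most clusters in E14, the 10 densest exons with at least 5, genes of clusters in both clones only or E14 only, the 10 largest moves of the dominant TSS, the deleted genes, and the top 3 of each list. Of the genes named outside this rule, *Hspa5*, *Rrbp1* as a change, *2610021A01Rik*, *Prpf38b* and the mitochondrial genes were chosen after their values were seen. *Pou5f1*, *Sox2*, *Nanog*, *Sox17* and *Sox1*, named as cell markers, also lie outside this rule. The gene and sequence of the cluster in E14 alone are not reported here.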

Additional observations from a re-analysis of the deposited data

How the results depend on the processing

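No paired analysis was possible because the libraries of a line were merged before clusters were made; for the same reason no replicate could be left out. Of 69 alternatives, 47 stayed within the interval of the value as reported or within 1.5 times a count, and 22 moved. Of the 69, 10 were chosen after seeing the data. The number of clusters in E14 (753) was 431 when the interquantile width had to be at least 3 bp. The ratio of long-exon to short-exon density in E14 (0.927) was 0.730 without the 5 leading genes, 0.813 over 100 bp from starts, 1.01 at a minimum exon length of 2000 bp, 1.02 with the shortest coding exon, 1.09 over 1000 bp from starts and 1.12 in genes with a cluster at a start, so its side of 1 depends on these choices; the 5 genes were picked for their long-exon clusters, which lowers the ratio by construction. Clusters in both clones and not in E14 (13) were 0 with a width of at least 3 bp, 1 without clusters of 1 bp and 6 in exons of at least 2000 bp. They were 70 when a shared cluster needed the same dominant TSS. Clusters in A1 and not in E14, whether or not C7 held them, numbered 22. The median width (4 bp) was 12 bp among clusters of at least 3 bp. The share with the same dominant TSS in all lines (65.9%) was 86.2% within 5 bp. The share with a pyrimidine-purine step (7.42%) was 11.03% with a width of at least 3 bp, 5.35% in exons of at least 2000 bp, 4.05% for C then A, and 68.3% when guanine at both preceding positions was counted in its place; that guanine share was 58.9% with a width of at least 3 bp. The 15 leading genes held 40.9% of clusters over 1000 bp from starts (37.2% as reported), and 14 of the 15 were the same, as were 12 of 15 over 100 bp. The ratio of internal to last exons (4.14) was 2.60 without the same 5 genes, also lowered by that choice, and 3.51 in genes with a cluster at a start.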
